A study of Mus musculus with 3 samples.

Results

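The 10 genes described here belong to the Bcl2 family and to the inhibitor of apoptosis family, and they were taken from the single-cell gene table by symbol (Bcl2, Bcl2l1, Mcl1, Bcl2a1b, Bax, Bak1, Bcl2l11, Pmaip1, Birc2 and Birc3), each matching 1 row of the 27998 genes. Mice of the C57BL/6 strain, heterozygous for Cx3cr1-creER-yfp, gave the YFP (+) cells, which FACS took from their lumbar spinal cord. In these mice the Cx3cr1 promoter drives both the inducible Cre and the reporter, and any cell using that promoter could enter the gate. The groups were naive animals, animals 24 h after sciatic nerve transection and animals 48 h after it, with 1 library each made, per the methods, from 3 pooled animals. The mice were young adults. The methods describe a course of tamoxifen before experiments in general and do not say separately whether these mice, for which no floxed allele is named, received it. Each cell barcode carries a suffix of 1, 2 or 3 that no label ties to a time point, and the libraries are therefore called library 1, 2 and 3 of unknown time point. With a single library per time point there was no replicate check and no test, and each ratio compares 2 libraries, not the conditions.

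Apoptosis in vertebrate cells runs largely through the mitochondrion. Bax and Bak1 are the effectors that open the outer mitochondrial membrane, the inhibitors Bcl2, Bcl2l1 (Bcl-xL), Mcl1 and Bcl2a1b (A1) hold them back, and the BH3-only proteins Bcl2l11 (Bim) and Pmaip1 (Noxa) bind and block the inhibitors. Birc2 and Birc3 (cIAP1 and cIAP2) are ubiquitin ligases that act at TNF receptor complexes, where they keep NF-kappaB signalling on and caspase-8 off. Microglia, the resident macrophages of the spinal cord, divide after a peripheral nerve injury, and their number is set by division and death together.

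The matrix held 7522 cells (609, 3591 and 3322 in libraries 1, 2 and 3) with median depths of 2218, 5952 and 5742 UMIs (unique molecular identifiers, each standing for 1 counted transcript), so library 1 stood apart in both cell number and depth. Between 7 and 23 barcodes of a library recurred in another. All 10 microglia markers were found, in 42.3% to 99.97% of cells, and the monocyte markers summed to between 3.08 and 9.80 CPM (UMIs per 1000000). Oligodendrocyte markers summed to 65.8 to 71.6 CPM and endothelial markers to 30.6, 14.4 and 19.3 CPM in libraries 1, 2 and 3. Of all cells, 22.45% had 1 oligodendrocyte marker and 9.86% had 1 endothelial marker, the most widespread of each list. T or NK cell markers summed to 1.23, 12.2 and 0.3045 CPM, neutrophil markers to 0, 4.90 and 4.26 and perivascular macrophage markers to 0, 2.66 and 1.83. Within these lists Cldn5, Cd3e, Ly6g, Cd163 and Lyve1 had no UMI. The part of such RNA in the results was not tested. Library 2 had far more UMIs of 20 mitosis genes (834.5 CPM against 34.3 and 29.7), and library 3 of 21 early response genes (30723 CPM against 3007 and 3542) and of 7 heat shock genes (2945 against 718.1 and 1424). As shares and levels move with depth, each cell with at least 2000 UMIs was thinned at random to 2000, which kept 408, 3569 and 3284 cells. A level is the count of a gene per 1000000 UMIs of these thinned cells (CPM), given with its exact 95% Poisson interval, a share is the percentage of thinned cells with at least 1 UMI, and a ratio of levels has an exact conditional binomial interval. Intervals cover counting error only and leave out any variation among animals. No cell type known to lack these genes was identified in the matrix, so the background of free RNA was not measured.

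Of the 10 genes, Birc2 and Birc3 are neighbours on chromosome 9 (chr9:7818227-7837064 and chr9:7848699-7873186, both on the minus strand; positions throughout are those of GENCODE M21 on GRCm38, the mm10 build of the counts). Mcl1 lies at chr3:95658788-95663176, Bcl2 at chr1:106538178-106714274, Bcl2l1 at chr2:152780668-152831728, Bcl2l11 at chr2:128126038-128162547, Bcl2a1b at chr9:89199209-89207827, Bax at chr7:45461697-45466898 and Bak1 at chr17:27019810-27029009. Bcl2, Bcl2a1b and Bax overlap other annotated transcription units on the same strand, and Bcl2 and Bak1 overlap genes on the opposite strand (Ggnbp1 for Bak1). The strand setting of the counting is not given in the sources used here, so reads of these overlaps could not be assigned with certainty. Bcl2a1b has near-identical copies: over the last 300 bases of their transcripts, which 3' libraries read, it matched Bcl2a1d at 99.3% and Bcl2a1a at 98.7% of aligned bases. Its counts are uncertain for that reason, whereas Birc2 and Birc3 matched at 55.9% of the bases aligned there.

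The results turn mainly on Mcl1 and Birc2, and the promoters of these genes and of Birc3, the neighbour of Birc2, are shown so that the sequence ahead of each start site can be read beside its level. Each runs from 250 bases before to 50 bases after a RefSeq start site (GRCm38.p6; chr3:95658471-95658770 on the plus strand, chr9:7837008-7837307 and chr9:7873121-7873420 on the minus strand). Capitals mark TGACG on either strand, the core of the cyclic AMP response element.
Mcl1: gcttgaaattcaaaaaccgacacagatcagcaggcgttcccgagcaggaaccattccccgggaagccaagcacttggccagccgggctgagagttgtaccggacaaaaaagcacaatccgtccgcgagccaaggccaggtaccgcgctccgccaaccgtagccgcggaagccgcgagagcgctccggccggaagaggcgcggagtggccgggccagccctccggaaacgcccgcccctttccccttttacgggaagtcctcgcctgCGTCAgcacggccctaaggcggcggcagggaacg
Birc2: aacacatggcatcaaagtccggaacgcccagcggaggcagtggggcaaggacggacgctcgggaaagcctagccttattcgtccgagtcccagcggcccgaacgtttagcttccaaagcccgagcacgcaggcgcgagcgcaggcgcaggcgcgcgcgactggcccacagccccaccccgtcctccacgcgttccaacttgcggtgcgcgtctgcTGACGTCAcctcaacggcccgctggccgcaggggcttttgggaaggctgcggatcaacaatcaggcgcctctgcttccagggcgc
Birc3: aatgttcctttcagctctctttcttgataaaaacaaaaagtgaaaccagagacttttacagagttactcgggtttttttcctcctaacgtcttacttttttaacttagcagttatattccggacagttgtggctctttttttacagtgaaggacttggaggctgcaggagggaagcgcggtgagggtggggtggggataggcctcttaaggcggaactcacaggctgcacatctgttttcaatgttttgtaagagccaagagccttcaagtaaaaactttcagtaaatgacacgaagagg
The Birc2 promoter held the whole palindrome TGACGTCA starting 35 bases before the start site, a run present in 1.79% of 32851 RefSeq promoters. Mcl1 held only the core, on the minus strand starting at base 17 after the start site, and the core alone was present in 20.8% of promoters. None of 4 other motifs searched on both strands was found in these 3 windows, namely the AP-1-like pattern TGANTCA, with any base at its centre (7.81% of promoters), the STAT site TTCNNNGAA (8.30%), the kappaB consensus (8.46%) and the CArG box (1.63%). The search covered 9 of the 10 genes, without Pmaip1, in 13 windows. Bcl2a1b alone had a match to the AP-1-like pattern (TGAATCA, with A at the centre, 164 bases before the start site), in a window with a core match as well. Bcl2l1 alone had a kappaB match, in 1 of its 3 windows. The core was also found in the Bcl2 window, 107 bases before the start site, and without the palindrome in another Birc2 window, 166 bases before that start site. These are matches of letters and do not show that a factor binds there.

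Among the inhibitors, Mcl1, a protein that turns over within hours and must be made continually, differed most between libraries. Its levels in libraries 1, 2 and 3 were 90.7 CPM (71.2 to 114), 98.6 CPM (91.5 to 106) and 229 CPM (218 to 241). Library 3 thus stood clear of the others, whose intervals overlapped at this depth. The share of cells with a UMI was 16.4%, 18.0% and 35.9%, and cells with 2 or more UMIs made up 1.47%, 1.68% and 8.47%, with up to 3, 3 and 7 UMIs in a single cell. Over all cells and UMIs, without thinning, the levels were 99.8, 97.0 and 237 CPM. Early response and heat shock genes were also higher in library 3, and their part in the Mcl1 level was not tested.

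Bcl2a1b, an NF-kappaB target of myeloid cells, was found at 327 CPM (289 to 369), 279 CPM (267 to 292) and 353 CPM (339 to 368) in the same order of libraries. Library 2 was lowest, by a ratio of 0.854 to library 1 (0.751 to 0.974) and by 1.26 for library 3 over library 2 (1.19 to 1.34). Bcl2l1, on which neurons and red cell precursors depend, had 109 (87.6 to 134), 75.8 (69.5 to 82.5) and 91.8 CPM (84.6 to 99.4). Library 2 was again lowest, and libraries 1 and 3 did not differ beyond counting error (ratio 0.842, 0.673 to 1.06). Among cells under 4000 UMIs, chosen after seeing the data, every interval of library 2 against another library held 0 on the log2 scale for both genes. Library 2 to library 1 gave -0.16 for Bcl2a1b (-0.43 to 0.11) and -0.31 for Bcl2l1 (-0.81 to 0.18). Library 3 to library 2 gave 0.17 (-0.11 to 0.44) and 0.09 (-0.42 to 0.62). Bcl2 itself was level, at 41.7 (28.9 to 58.2), 48.1 (43.1 to 53.4) and 47.8 CPM (42.7 to 53.4), with all 3 intervals overlapping. The near copies Bcl2a1a (124, 99.05 and 102 CPM) and Bcl2a1d (51.5, 28.9 and 28.2) had ratios of library 3 to library 2 of 1.03 (0.927 to 1.15) and 0.976 (0.796 to 1.20).

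**Figure D1:**
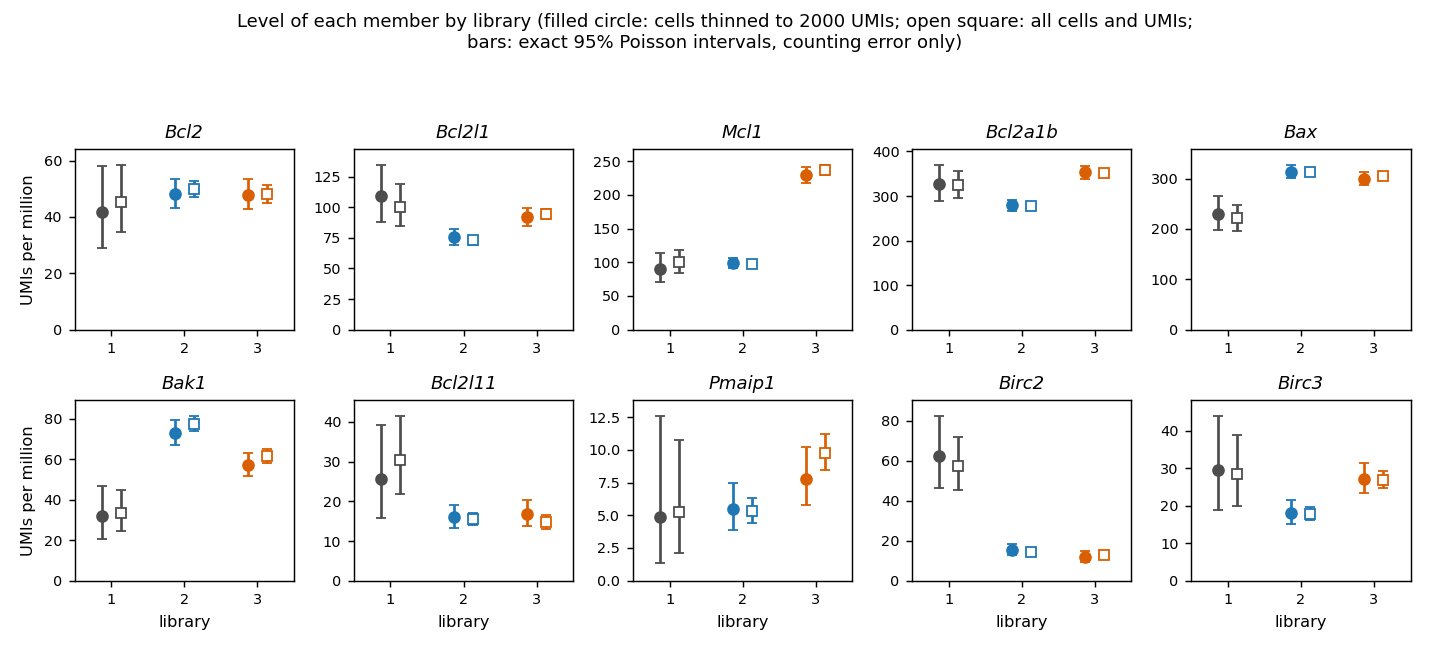
Level of each of the 10 genes in CPM (y axis, from 0) in libraries 1, 2 and 3 (x axis), as filled circles for cells thinned to 2000 UMIs and open squares for all cells and UMIs, with exact 95% Poisson intervals. Mcl1 stood at 229 CPM in library 3 against 90.7 and 98.6, Birc2 at 62.5 in library 1 against 15.4 and 12.03, and Bak1 was lowest in library 1, at 31.9.

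Of the effectors, Bak1 was lower in library 1, with 31.9 CPM (20.8 to 46.7), than in library 2, with 73.0 (66.9 to 79.5), and library 3, with 57.1 (51.5 to 63.2). No interval overlapped another. Among cells under 4000 UMIs, chosen after seeing the data, the log2 ratio of Bak1 was 1.32 for library 2 to library 1 (0.62 to 2.07). There it was 0.71 for library 3 to library 1 (-0.06 to 1.495) and -0.62 for library 3 to library 2 (-1.25 to 0.005). The intervals of these last ratios held 0. Bax, which moves from the cytosol to the mitochondrion on activation, had 230.4 CPM (199 to 266), 313 CPM (300.1 to 326) and 299.6 CPM (286.5 to 313). Libraries 2 and 3 did not differ beyond counting error for Bax (ratio 0.957, 0.901 to 1.02), and both were above library 1, by 1.36 (1.17 to 1.59) and 1.30 (1.12 to 1.52).

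The BH3-only genes were sparse. Bcl2l11, the sensor of lost growth factor signalling, had 25.7 CPM (15.9 to 39.3), 15.97 CPM (13.2 to 19.2) and 16.9 CPM (13.9 to 20.4), in 3.14% to 4.90% of cells. These intervals overlapped, but over all UMIs library 1 (30.5 CPM, 21.9 to 41.4) was clear of libraries 2 (15.5, 14.0 to 17.1) and 3 (14.7, 13.1 to 16.5). Among cells under 4000 UMIs, chosen after seeing the data, neither log2 ratio to library 1 was beyond counting error. These were -0.40 for library 2 (-1.49 to 0.64) and -0.97 for library 3 (-2.22 to 0.18). Pmaip1, the partner that targets Mcl1 for degradation, had 4, 39 and 51 UMIs, which gave 4.90 (1.34 to 12.6), 5.46 (3.89 to 7.47) and 7.77 CPM (5.78 to 10.2). At this depth no difference was detectable, but over all UMIs library 3 had 9.76 CPM against 5.31 in library 2, a ratio of 1.84 (1.46 to 2.32).

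Of the ubiquitin ligases, Birc2 had 51 UMIs in the 408 cells of library 1, 110 in the 3569 cells of library 2 and 79 in the 3284 cells of library 3. These gave 62.5 CPM (46.5 to 82.2), 15.4 CPM (12.7 to 18.6) and 12.03 CPM (9.52 to 14.99), and a share of cells 11.3%, 3.03% and 2.41%. Library 1 thus stood clear of the others, by 4.06 over library 2 (2.85 to 5.70) and 5.20 over library 3 (3.58 to 7.48). Birc3, the inducible copy and an NF-kappaB target, had 29.4 (18.8 to 43.8), 18.1 (15.1 to 21.5) and 27.1 CPM (23.3 to 31.4), and library 3 exceeded library 2 by 1.5 (1.19 to 1.90). Among cells under 4000 UMIs, chosen after seeing the data, that log2 ratio was 0.63 (-0.53 to 1.855), not beyond counting error. Xiap, the relative that inhibits caspases directly, had 131, 103 and 93.3 CPM. The ratio of Birc2 to Birc3 UMIs was 2.13 (1.28 to 3.61), 0.853 (0.655 to 1.11) and 0.444 (0.336 to 0.582), and that of Birc2 to Xiap 0.477 (0.335 to 0.671), 0.150 (0.122 to 0.184) and 0.129 (0.101 to 0.163). Neither ratio was among the comparisons planned. Library 1 had only 24 Birc3 UMIs, and Birc3 itself differed between libraries 2 and 3 at this depth. Library 1 was also the shallowest library. Among cells under 4000 UMIs, a choice made after seeing the data, the log2 ratio of Birc2 was -2.00 for library 2 to library 1 (-3.09 to -1.04) and -2.37 for library 3 to library 1 (-3.58 to -1.33).

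To read these ratios against other genes, every gene with a mean level of at least 20 CPM over 2 libraries was compared, and a gene was counted when its levels differed at least 2-fold. For library 2 against library 1, 9 of the 10 genes were compared (Pmaip1 was too low). Bak1 was counted as higher (ratio 2.29, 1.55 to 3.54), as were 4.02% of the 6192 genes compared, and Birc2 as lower (0.247, 0.175 to 0.351), as were 3.26%. Birc2 was below 20 CPM in libraries 2 and 3 and entered both comparisons with library 1 only through its level there, so its count as lower follows in part from the minimum and is given as a description. For library 3 against library 1, with 9 genes compared, Mcl1 was counted as higher (2.53, 2.0 to 3.24), as were 3.56% of 6132 genes, and Birc2 as lower (0.192, 0.134 to 0.279), as were 4.66%. For library 3 against library 2, 7 genes were compared, since Bcl2l11, Pmaip1 and Birc2 were too low, and Mcl1 was higher (2.33, 2.12 to 2.55), as were 1.52% of 5977 genes, with none of the 7 lower, as were 1.46%. With 1 gene counted of 7 or 9 compared in a direction, these counts are too small to set the family apart from other genes. At 1.5-fold, Bak1 was higher in library 2 than in library 1 (12.2% of all genes were) and Bcl2l11, Birc2 and Birc3 lower (15.3%). Mcl1 and Bak1 were higher in library 3 than in library 1 (11.3%) and Bcl2l11 and Birc2 lower (16.9%), and Mcl1 was higher in library 3 than in library 2 (3.68%) with none lower (4.27%). The members counted as lower at 1.5-fold also passed the minimum only through library 1, and the interval of Bcl2l11 held 1 in both comparisons, so nothing is read from these counts. The median log2 ratio of the genes compared was -0.23, 0.11 and 0.28 in these comparisons, beside -0.08, -0.08 and -0.02 over all genes. For library 2 against 1 it included Bcl2l11, Birc2 and Birc3, which passed the minimum only through library 1. For library 3 against 1 it included Bcl2l11 and Birc2 in the same way, and for library 3 against 2 Birc3, past the minimum only through library 3. The medians follow in part from the minimum, and nothing is read from them.

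**Figure D2:**
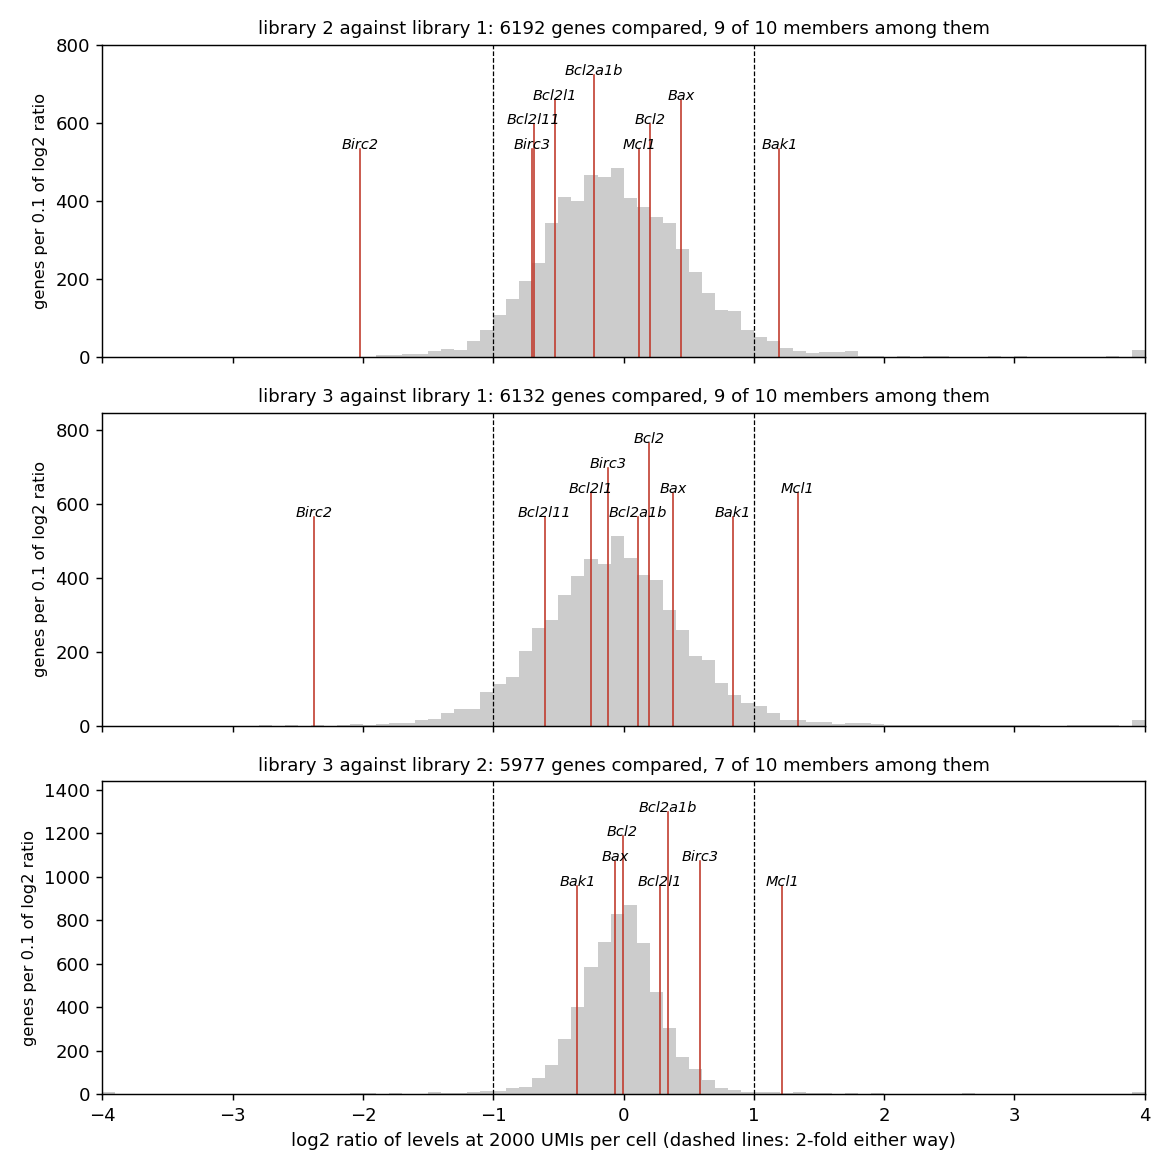
Histograms of the log2 ratio of levels (x axis) over all genes with a mean level of at least 20 CPM, as genes per bin (y axis), for the 3 pairs of libraries, with the compared family members as red lines, dashed lines at 2-fold and ratios past 4 in either direction gathered in the outermost bins. Birc2, which passed the minimum only through library 1, lay far to the left in both comparisons with that library, and Mcl1 to the right of the 2-fold line in both comparisons of library 3.

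The difference in Mcl1 between libraries 3 and 2 was also seen in cells not called dividing. Without the cells called dividing (defined in the next paragraphs), Mcl1 had 229.8 CPM in library 3 and 102.7 in library 2, a ratio of 2.24 (2.02 to 2.48), when 1.52% of 5932 genes were at least 2-fold higher and 0.944% lower. Dividing cells may remain among those of library 2, which still had Birc5, a gene of chromosome segregation, at 80.8 CPM. Only 229 cells of library 2 had no gene of either list used for the call. The genes counted at 2-fold in the comparisons with library 1 were also the same without the cells called dividing, namely Bak1 (3.26% of 6134 genes were higher) and Birc2 (3.18% lower) for library 2 and Mcl1 (3.34% of 6112 genes higher) and Birc2 (4.58% lower) for library 3. That step took only 4 cells from library 1 and 148 from library 3. The counts for library 3 against library 1 could thus hardly change, and nothing is read from their agreement. Birc2 again passed the minimum only through library 1 (61.9 CPM against 17.3 and 11.8). Among cells under 4000 UMIs (399, 351 and 372 of libraries 1, 2 and 3) the log2 ratio of Mcl1 was smaller, at 0.79 (0.40 to 1.18), and no longer 2-fold. In these cells Mcl1 was also higher in library 2 than in library 1, by a log2 ratio of 0.54 (0.06 to 1.01), and in library 3 than in library 1 by 1.32 (0.91 to 1.75), so that the order of libraries 1 and 2 depended on which cells were compared.

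The effectors and inhibitors did not move alike across libraries. The sum of Bcl2, Bcl2l1, Mcl1 and Bcl2a1b UMIs over the sum of Bax and Bak1 UMIs, a ratio chosen after its values were seen, came to 2.17 (1.84 to 2.56), 1.30 (1.24 to 1.37) and 2.02 (1.93 to 2.13) for libraries 1, 2 and 3. Library 2 was therefore lowest, and libraries 1 and 3 did not differ beyond counting error. Without Mcl1 the ratio was 1.82, 1.05 (0.991 to 1.1) and 1.38 (1.31 to 1.46), and without Bcl2a1b, whose counts are uncertain, 0.921 (0.755 to 1.12), 0.576 (0.542 to 0.613) and 1.03 (0.977 to 1.1). Library 2 was lowest in each form, and libraries 1 and 3 differed only in the form without Mcl1. The sums were not compared in cells under 4000 UMIs, a choice made after seeing the data. There Mcl1, Bax and Bak1 were each higher in library 2 than in library 1. Bcl2a1b and Bcl2l1 of library 2 did not differ there from either other library beyond counting error. Counts of different genes need not be on one scale, so the ratios are read between libraries and do not say which side is in excess within a cell.

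**Figure D3:**
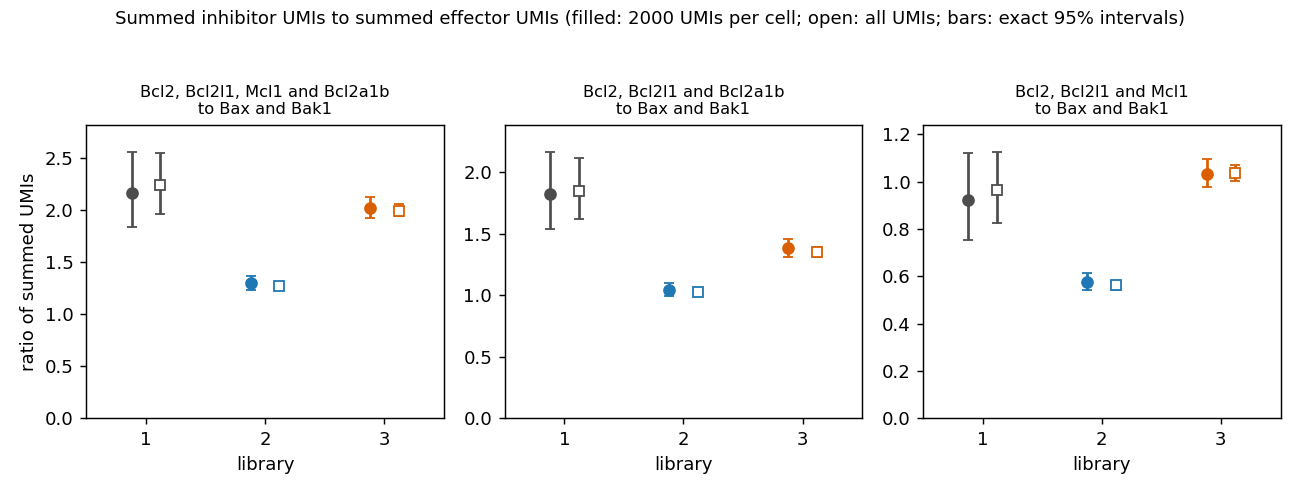
Ratio of summed inhibitor UMIs to summed Bax and Bak1 UMIs (y axis, from 0) by library (x axis), with all 4 inhibitors, without Mcl1 and without Bcl2a1b, as filled circles for thinned cells and open squares for all UMIs, with exact 95% intervals. Library 2 was lowest in each panel, at 1.30, 1.05 and 0.576.

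Dividing cells were called from 2 lists of 20 genes. A mitosis-gene cell had at least 3 different genes of the mitosis list among its 2000 UMIs and a replication-gene cell, failing that, at least 3 of the replication list. Library 2 had 579 replication-gene and 594 mitosis-gene cells beside 2396 others, library 3 had 145 and 3 beside 3136 others, and library 1 had 4 dividing cells, too few to compare. These classes are ranges of a score, since 1731 cells of library 2 and 503 of library 3 had 2 or 3 genes of a list. In library 2, 6 of the 10 genes were high enough to compare between dividing and other cells, and none differed 2-fold in either direction, beside 1.17% of 6065 genes higher and 0% lower. In library 3, 7 were compared and none differed 2-fold, beside 2.02% of 5984 genes higher and 1.1% lower. Nor did any differ 2-fold in mitosis-gene cells of library 2 (1.94% of 6069 genes higher, 0.0494% lower), in replication-gene cells of library 2 (0.530% of 6042 genes higher, 0.0497% lower) or in replication-gene cells of library 3 (2.0% of 5990 genes higher, 1.19% lower). At 1.5-fold Bcl2 was higher in dividing cells of library 2 (3.07% of all genes were) and none lower (0.445%), and none differed in library 3 (9.46% higher and 5.51% lower). The shares of all genes in dividing cells, here and below, count genes of the 2 lists that made the call, so they follow in part from it. The median log2 ratio was 0.01 in library 2, like that of all genes (0.01), and -0.07 in library 3 beside 0.05.

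In library 2 the effectors were nearly level across the classes. Bax had 309 CPM in other cells, 324 in replication-gene cells and 318 in mitosis-gene cells, and Bak1 73.7, 62.2 and 80.8. Dividing cells over other cells gave 1.04 for Bax (0.95 to 1.14) and 0.972 for Bak1 (0.804 to 1.17), both with intervals that held 1. Bcl2l1 (0.993, 0.825 to 1.19) and Bcl2a1b (1.02, 0.932 to 1.13) had intervals that held 1 as well, all in thinned cells. Mcl1 had 102.7 CPM in other cells, 79.5 in replication-gene cells and 101.0 in mitosis-gene cells. Its ratio of dividing to other cells was 0.880 (0.746 to 1.04), with an interval that held 1. Over all UMIs of the same cells, the intervals of Mcl1 (0.907, 0.832 to 0.987) and Bcl2a1b (0.947, 0.901 to 0.995) lay below 1. Those of Bcl2l1 (0.922, 0.836 to 1.02), Bax (0.999, 0.953 to 1.05) and Bak1 (0.981, 0.893 to 1.08) held 1.

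Bcl2 was the inhibitor with the highest ratio in dividing cells of library 2, and its size depended on how it was counted. It had 40.3 CPM in other cells (34.8 to 46.4), 53.5 in replication-gene cells (41.1 to 68.6) and 74.1 in mitosis-gene cells (59.4 to 91.3), which made 1.59 for dividing over other cells (1.27 to 1.98; log2 0.67). Another random draw of the thinning gave a log2 ratio of 0.26 (-0.06 to 0.58), so the draw moved the value. Over all UMIs, which no draw touches, Bcl2 had 58.4 CPM in dividing and 44.3 in other cells, a ratio of 1.32 (1.17 to 1.48), and 64.4 in mitosis-gene cells (ratio 1.45, 1.27 to 1.66). Depth differed between these classes, with medians of 7290 and 5636 UMIs in dividing and other cells, and its part was not tested. With Seurat's phases in place of the lists the log2 ratio was 0.19 (-0.18 to 0.58). In library 3 the ratio over all UMIs was 1.02 (0.757 to 1.36).

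The ubiquitin ligases were sparse in these classes. Birc3 had 20.2 CPM in other cells of library 2, 8.64 in replication-gene cells (10 UMIs) and 18.5 in mitosis-gene cells, and over all UMIs dividing cells had 0.753 of the level of other cells (0.611 to 0.925). Birc2 had 17.3, 8.64 and 14.3 CPM, and over all UMIs a ratio of 0.923 (0.736 to 1.15). Bcl2l11 had 15.7, 16.4 and 16.8 CPM and Pmaip1 4.80, 5.18 and 8.42, with ratios over all UMIs of 1.17 (0.951 to 1.45) and 1.33 (0.919 to 1.90). In library 3, with 148 dividing cells, every interval of the 10 ratios held 1, with and without thinning. The ratio of inhibitor to effector UMIs was 1.30, 1.26 and 1.35 in other, replication-gene and mitosis-gene cells of library 2, with overlapping intervals. Dividing cells may remain among the other cells, and the part of division in this ratio was not tested.

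**Figure D4:**
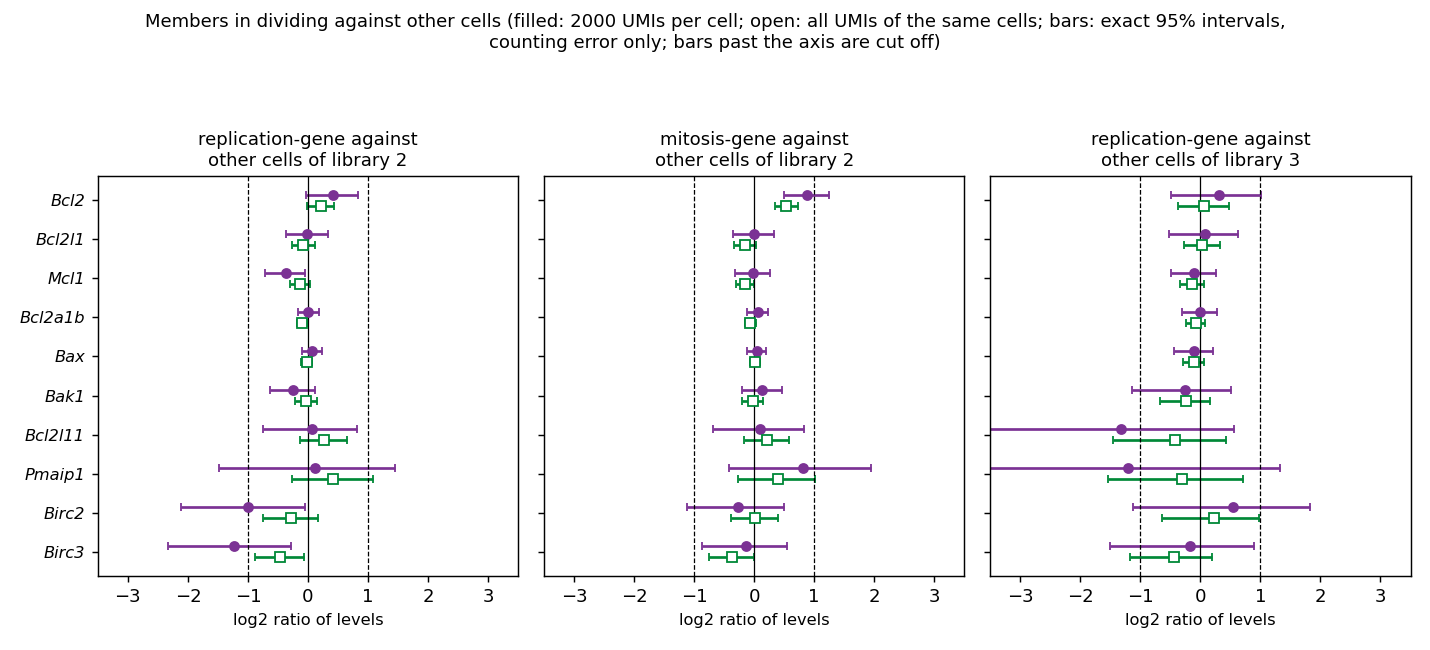
Log2 ratio of levels (x axis) for each of the 10 genes (y axis) in replication-gene and mitosis-gene cells against other cells of library 2 and in replication-gene cells against other cells of library 3, filled for cells thinned to 2000 UMIs and open for all UMIs of the same cells, with exact 95% intervals and dashed lines at 2-fold. Bcl2 in mitosis-gene cells lay to the right of 0 in both counts, at ratios of 1.84 and 1.45, and the widest intervals were those of Pmaip1 and Bcl2l11 in library 3.

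Within library 3 the early response genes, such as Fos, Jun and Egr1, varied from cell to cell, and the cells of each library were ranked on their summed UMIs into terciles. In library 3 these genes gave on average 36.8, 59.8 and 87.7 of the 2000 UMIs in the lowest, middle and highest tercile, and in library 2 they gave 3.72, 6.58 and 10.96. Mcl1, which is not among these genes, was higher with each tercile of library 3, at 178.5 CPM (161 to 197), 226 (207 to 247) and 283 (262 to 307), as was its share of cells, at 30.0%, 35.6% and 42.1%. No neighbouring intervals overlapped. The ratio of highest to lowest tercile was 1.59 (1.40 to 1.81), and 1.60 over all UMIs (1.49 to 1.73), at percentile 98.6 of all genes compared. In library 2 Mcl1 had 92.4, 101.7 and 101.8 CPM, and in library 1 it had 95.6, 80.9 and 95.6 on 22 to 26 UMIs per tercile. Few early response UMIs ranked the cells of libraries 1 and 2, with tercile means from 3.13 to 9.15 and from 3.72 to 10.96. Counting error may thus decide much of that ranking, and these values are not read as a contrast with library 3. Even the lowest tercile of library 3 was above every tercile of library 2, while its early response genes were also above the highest tercile of library 2.

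None of the 7 genes compared between the highest and lowest tercile of library 3 differed 2-fold, beside 0.492% of 5894 genes higher and 0.0679% lower. In library 2 none of 6 did, beside 0.299% of 6020 genes higher and 0% lower, and in library 1 none of 9 did, beside 7.10% of 6314 genes higher and 5.02% lower. These shares, and the percentile of Mcl1, count the early response genes that ranked the cells, so they follow in part from the ranking. Bcl2 went in the other direction from Mcl1 in library 3, at 61.2, 47.0 and 35.2 CPM, a ratio of 0.575 (0.429 to 0.767), and of 0.808 over all UMIs (0.686 to 0.952). Bcl2a1b had 338, 331 and 391 CPM and Bax 311, 314 and 274, with ratios over all UMIs of 1.091 (1.03 to 1.16) and 0.896 (0.840 to 0.956). Pmaip1, whose product binds that of Mcl1, had 5.94, 5.48 and 11.9 CPM on 13, 12 and 26 UMIs, and over all UMIs 1.62 for highest over lowest (1.11 to 2.38). In library 2 it had 7.98, 2.94 and 5.47 CPM on 19, 7 and 13 UMIs, and over all UMIs 0.621 (0.389 to 0.977). Few early response UMIs ranked those cells, and this is not read as a contrast. Median depth also differed across the terciles of library 3 (5025, 6061 and 6026 UMIs), and its part was not tested. Birc2 was highest in library 1 in every tercile, with 69.9, 69.9 and 47.8 CPM against 10.5 to 18.1 in the terciles of libraries 2 and 3.

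**Figure D5:**
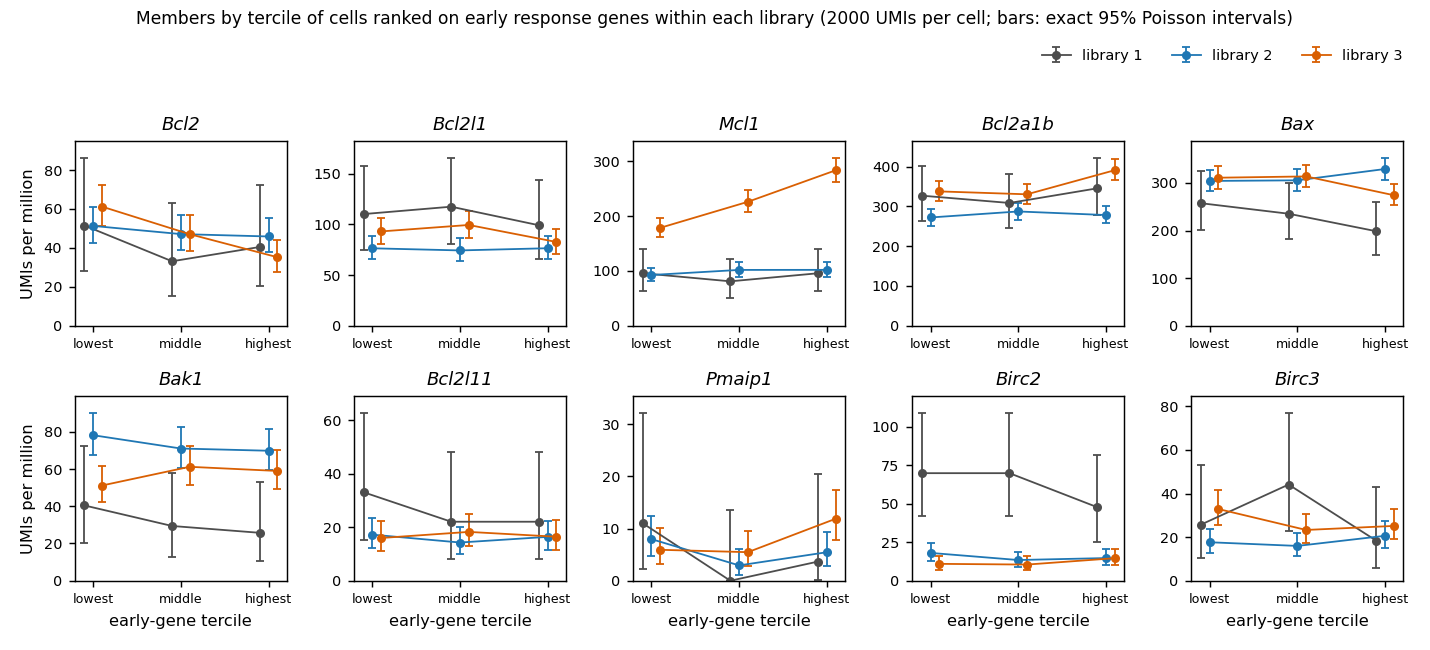
Level of each gene in CPM (y axis, from 0) in the lowest, middle and highest tercile of cells ranked on 21 early response genes (x axis) within libraries 1, 2 and 3 (colours), with exact 95% Poisson intervals. Mcl1 went from 178.5 to 283 CPM along the terciles of library 3. In libraries 1 and 2, where few early response UMIs ranked the cells, no such rise was seen, and this is not read as a contrast.

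Of 43 other genes of apoptosis, 26 were high enough to compare between libraries 2 and 1, and 3 of them differed 2-fold. Over all 6192 genes compared, 4.02% were at least 2-fold higher in library 2 and 3.26% lower, and counts this small do not set these genes apart. Bad, a BH3-only gene, was higher in library 2 (41.7 against 85.0 CPM, ratio 2.04, 1.44 to 2.98), and Naip2, a sensor of the inflammasome that shares the Birc fold, was lower (67.4 against 31.8, 0.472, 0.350 to 0.646). Birc5 (survivin), which works in chromosome segregation, was listed with no UMI in library 1, where the limit, set at 3 counts and not by the exact interval, is 3.68 CPM, with 104.7 CPM in library 2, where it counted as higher, and with 1.07 in library 3. Of 25 compared between libraries 3 and 1 none differed 2-fold, beside 3.56% of all genes higher and 4.66% lower. Of 25 between libraries 3 and 2 Birc5 alone was lower (ratio 0.0102, 0.00408 to 0.0211), as were 1.46% of all genes, and none was higher, beside 1.52%. Birc5 passed the minimum only through library 2 in both comparisons, so its counts follow in part from the minimum and are given as a description. The median log2 ratio of these lists was -0.15, -0.18 and -0.06. Genes past the minimum only through 1 library were among them, and nothing is read from these medians. Within library 2, Birc5 was the only gene of the 25 at least 2-fold higher in mitosis-gene cells (205 against 80.8 CPM, 2.54, 2.16 to 2.99), as were 1.94% of 6069 genes. The highest Birc5 level was thus in library 2, and the highest Birc2 level in library 1.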

How the data were processed

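The cells were counted with Cell Ranger 2.1.1 on mm10, per the submitters' processing notes, and the authors deposited 1 matrix of UMI counts that were not normalized (45209768 UMIs in the 3 libraries). The sort excluded doublets according to the methods, and no doublet caller was run here. Samples were grouped by barcode suffix, which could not be matched to naive, 24 h or 48 h. The 10 genes, the gene lists and the tests were chosen with earlier results of these data known, and all 10 genes are named with their values, as are other apoptosis genes past a 2-fold ratio and close relatives of the 10. Cells of at least 2000 UMIs were thinned without replacement (seed 1), no filter on genes or mitochondrial UMIs was applied, and 201, 22 and 38 shallower cells were left out. Levels, shares and ratios have exact Poisson, Clopper-Pearson and conditional binomial 95% intervals. The labels name version 3.1 of the reagent kit and the methods another version. The comparison step was tested on simulated counts with the totals of libraries 2 and 3 and changes larger than 2-fold. That test does not cover library 1. Seurat 5.3.0 (CellCycleScoring) ran in R 4.3.3, and everything else in Python 3.11.15 with scipy 1.17.1 and numpy 2.4.6. Alternatives were other depths, no thinning, another draw, a cell filter, other scalings, other folds and level minima, and other definitions of dividing cells.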

Additional observations from a re-analysis of the deposited data

How the results depend on the processing

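Of 124 counts of family members past a fold under an alternative, 111 stayed within 1.5 times their value, and 428 of 466 log2 ratios moved by less than their own counting interval. Thinning to 4000 UMIs left 9 cells in library 1, and there the counts for library 2 against 1 (higher) and for library 3 against 1 (higher and lower) were 0, Mcl1 took the place of Birc2 as the 1 gene lower in library 2 than in library 1, and Bak1 was at -0.15 (library 2 against 1) and -0.47 (library 3 against 1) on the log2 scale. At a fold of 1.5, 3 members were lower in library 2 than in library 1 (Bcl2l11, Birc2 and Birc3, each past the minimum only through library 1; 15.3% of all genes were), 2 higher (Mcl1 and Bak1; 11.3%) and 2 lower (Bcl2l11 and Birc2; 16.9%) in library 3 than in library 1, and 1 (Bcl2; 3.07%) higher in dividing cells of library 2. Without thinning 2 were lower in library 3 than in library 1 (Bcl2l11 and Birc2, both past the minimum only through library 1). In cells under 4000 UMIs, chosen after seeing the data, 0 were higher in library 3 than in library 2. For dividing cells of library 3, 1 was lower with another draw (Birc3), with Seurat phases (Birc3), at a minimum of 5 CPM (Pmaip1, on 1 UMI in dividing cells) and with no minimum (Pmaip1). The counts of this paragraph that have no share of all genes beside them lack a background, and nothing about the family is read from them. Birc3 for library 3 against 2 was -0.028 on the log2 scale at 1000 UMIs. Excluding cells called dividing, also chosen after seeing the data, changed none of the counts between libraries, nor did other scalings or the cell filter. That exclusion took only 4 cells from library 1 and 148 from library 3, and the filter kept all 408, 3569 and 3284 cells. Classes of at least 5 genes or of the mitosis list alone left 12 and 3 cells of library 3 and gave no value. Shares moved with depth in 108 of 180 cases, since deeper cells show more genes. No paired analysis was possible because each time point is 1 library and no result comes from a test, and no replicate could be left out. The depth of library 1 and the few UMIs of Pmaip1, Bcl2l11, Birc2 and Birc3 limit what could be detected.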

Other observations

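Nfkbia and Myc also had their highest levels in library 3. Nfkbia, the inhibitor of NF-kappaB that the pathway itself induces, had 203, 198 and 517 CPM in libraries 1, 2 and 3, and Myc, a transcription factor of cell growth, had 41.7, 41.5 and 94.9. Within library 3 Nfkbia had 404.6, 530.1 and 617 CPM along the terciles of early response genes and Myc 74.0, 102.7 and 107.9. In dividing and other cells of library 2 Nfkbia had 170.1 and 211.6 CPM, and Myc 43.0 and 40.7. Against library 1, the NF-kappaB targets Birc3 and Bcl2a1b had ratios of 0.921 (0.600 to 1.48) and 1.08 (0.951 to 1.23) in library 3. Cflar, an inhibitor of caspase-8, had 0.752 (0.631 to 0.902). Against library 2, the ratios of Birc3, Bcl2a1b and Cflar in library 3 were 1.5 (1.19 to 1.90), 1.26 (1.19 to 1.34) and 1.03 (0.941 to 1.13). Among cells under 4000 UMIs neither Birc3 nor Bcl2a1b differed between libraries 3 and 2 beyond counting error. The part of NF-kappaB in the levels of library 3 was not tested. Nfkbia and Myc were picked for comparison with Mcl1 after the members' values were seen, and no relation between them was tested.

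Casp6, an executioner caspase, was at least 2-fold lower in library 3 than in library 1 only once cells called dividing were left out (ratio 0.4955, 0.319 to 0.795), and was at 0.507 with them (0.327 to 0.811). It passed the minimum of 20 CPM only through library 1, and 4.58% of 6112 genes were lower in that comparison without cells called dividing. Between the highest and lowest tercile of early response genes in library 1, with 136 cells each, Bcl2a1d had 80.9 against 33.1 CPM (22 and 9 UMIs; ratio 2.44, 1.08 to 6.03), Bnip3 11.03 against 47.8 (3 and 13 UMIs; 0.231, 0.0422 to 0.840) and Bcl2l12 11.03 against 33.1 (3 and 9 UMIs; 0.333, 0.0581 to 1.34). Bnip3 and Bcl2l12 passed the minimum only through the lowest tercile. These made 1 gene higher and 2 lower of the 27 compared, beside 7.10% of 6314 genes higher and 5.02% lower. Counting error may decide much of the ranking in library 1, and nothing is read from these genes.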
